A study of Mus musculus with 6 samples.

Results

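The LIM-only genes of the FHL and CSRP families were examined together with 3 PDZ-LIM genes in cultured fibroblasts from mouse embryos (MEFs), the cell that makes connective tissue. The set holds 8 genes, Fhl1, Fhl2, Fhl3, Csrp1, Csrp2, Pdlim1, Pdlim5 and Pdlim7, of the 56953 genes in the deposited table. They were found by matching Ensembl identifiers to GENCODE symbols, and the set was drawn up because Fhl1 was lost in the same comparison that is described here. Bulk poly-A RNA sequencing was performed on 3 libraries labelled WT and 3 labelled GαqKO, each grown in DMEM with serum, with no treatment. The paper calls the second line a Gαq/11 knockout, and both lines came from another laboratory. The labels do not say whether a line is a clone, nor give the age, sex or strain of the embryos, so genotype cannot be told apart from other differences between the lines.

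LIM domains are zinc-binding modules that hold proteins together rather than catalyse reactions. FHL proteins are built of LIM domains in a row, CSRP proteins of a pair of them, and PDLIM proteins join LIM domains to a PDZ domain that binds α-actinin. Many of these proteins sit on actin stress fibers and focal adhesions and also enter the nucleus, where some act as cofactors of transcription factors such as SRF, and in fibroblasts they are best known from contractile, stress fiber-rich cells.

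Levels are given as normalized counts, each gene count having been divided by the size factor of its library, and these summed to between 11392429 and 11483486 per library. Whole reads could be recovered in 5 libraries, with 9853000 to 12229175 reads each. Fold changes compare the libraries labelled GαqKO with WT on the log2(normalized count + 1) scale in limma, fitted over the 14096 genes that reached 10 normalized counts in 3 or more libraries. Gna11, which encodes Gα11, fell from 2148 ± 29.0 to 451.6 ± 28.7 normalized counts, but Gnaq, which encodes Gαq, did not, at 1691 ± 48.5 and 1926 ± 36.0 (SD, n = 3 each). For the protein, the paper reports by Western blot and immunofluorescence that its GαqKO MEFs lacked Gαq, which transcript counts do not measure. Because the Gnaq transcript was not lower, directions are drawn from the labels. Ddx3y on the Y chromosome had 1197 ± 52.3 normalized counts in WT (SD, n = 3) and was at 0 in each library labelled GαqKO, so the lines also differ in Y-linked transcripts. Reads were counted over bulk cells, so fewer cells with a transcript and less transcript per cell cannot be told apart.

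The promoters of the FHL genes are shown first, because Fhl1 and Fhl2 differed between the lines in opposite directions and each has a window with a CArG box, the DNA element that SRF binds. RefSeq windows of 300 bases, from 250 bases before to 50 bases after a start site, were at hand for 7 of the 8 genes, in 11 windows. Each window matched GRCm39 exactly at a single place on its chromosome, and the coordinates are those of that match. The search covered the CArG box on both strands, which reads the same on either, and the capitals mark it. Of the 2 Fhl1 windows, the one shown lies at chrX:55824793-55825092 on the plus strand, inside the annotated span of Fhl1 and at an internal start site. The first Fhl2 window lies at chr1:43235872-43236171 and the second at chr1:43203072-43203371, both on the minus strand and inside the span of Fhl2.
Fhl1: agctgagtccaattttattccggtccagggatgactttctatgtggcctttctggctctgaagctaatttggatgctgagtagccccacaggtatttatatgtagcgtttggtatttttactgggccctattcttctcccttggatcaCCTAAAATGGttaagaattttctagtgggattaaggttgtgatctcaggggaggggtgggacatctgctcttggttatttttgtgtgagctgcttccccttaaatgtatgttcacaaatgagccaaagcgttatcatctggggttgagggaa
Fhl2, first window: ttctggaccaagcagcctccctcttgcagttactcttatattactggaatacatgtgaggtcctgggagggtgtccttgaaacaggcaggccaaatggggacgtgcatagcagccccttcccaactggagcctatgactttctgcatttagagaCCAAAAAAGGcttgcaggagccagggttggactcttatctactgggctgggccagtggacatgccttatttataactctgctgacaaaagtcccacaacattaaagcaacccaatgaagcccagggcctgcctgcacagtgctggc
Fhl2, second window: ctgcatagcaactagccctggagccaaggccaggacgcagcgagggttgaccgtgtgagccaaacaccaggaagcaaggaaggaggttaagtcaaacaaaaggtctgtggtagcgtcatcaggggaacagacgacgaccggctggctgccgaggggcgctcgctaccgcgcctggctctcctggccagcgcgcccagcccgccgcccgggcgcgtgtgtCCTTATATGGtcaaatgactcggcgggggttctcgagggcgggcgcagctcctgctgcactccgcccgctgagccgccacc
The box reads CCTAAAATGG in Fhl1, beginning 102 bases before the start site, and CCAAAAAAGG and CCTTATATGG in Fhl2, beginning 96 and 31 bases before it. A CArG box was present in 3 of the 11 windows, all of them FHL windows, and in 535 of 32851 promoter windows of the whole RefSeq table (1.63%). The other Fhl1 window, at chrX:55831637-55831936, and the windows of Fhl3, Csrp1, Pdlim1, Pdlim5 and Pdlim7 did not hold the full box, which says only that these letters are not in those windows. The match does not show that SRF binds there.

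Pdlim1 is shown beside them because it had the next lowest ratio to WT after Fhl1. Its window, at chr19:40260011-40260310 on the minus strand, lies inside the annotated span of Pdlim1, around an internal start site. Capitals mark the GC box, searched as GGGCGG and on the other strand as CCGCCC.
Pdlim1: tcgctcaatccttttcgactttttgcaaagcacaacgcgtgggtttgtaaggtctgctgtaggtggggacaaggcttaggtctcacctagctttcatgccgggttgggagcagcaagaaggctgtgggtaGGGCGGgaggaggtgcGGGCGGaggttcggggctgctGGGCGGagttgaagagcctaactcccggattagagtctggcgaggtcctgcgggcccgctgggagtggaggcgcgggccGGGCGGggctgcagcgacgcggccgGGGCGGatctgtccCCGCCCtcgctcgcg
The Pdlim1 window held 6 GC boxes and 65.7% G and C bases, against no GC box and 44.0% in the Fhl1 window shown, and 3 GC boxes and 66.0% in the second Fhl2 window. A GC box was found in 6 of the 11 windows and in 35.7% of all 32851.

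Of the 8 genes, 5 were lower in every library labelled GαqKO than in every WT library (Fhl1, Fhl3, Csrp1, Pdlim1 and Pdlim7), 2 were higher in every one (Fhl2 and Csrp2), and Pdlim5 overlapped. Groups that do not overlap were found for 69.6% of the genes tested, so nothing is read from this count. An adjusted p under 0.05 was reached by 7 of the 8, beside 65.8% of all genes tested. With that and a log2 fold change over 1 or under -1, which are the paper's thresholds, 2 genes were higher and 3 lower, beside 10.2% and 10.5% of all genes tested. Because the set was chosen on this contrast for the loss of Fhl1, which is among the genes counted, these counts are not read as a test. The values below are a description and carry no p-value. All 8 genes entered the fit, 7 of them with at least 10 normalized counts in all 6 libraries and Fhl1 through its WT libraries alone.

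**Figure D1:**
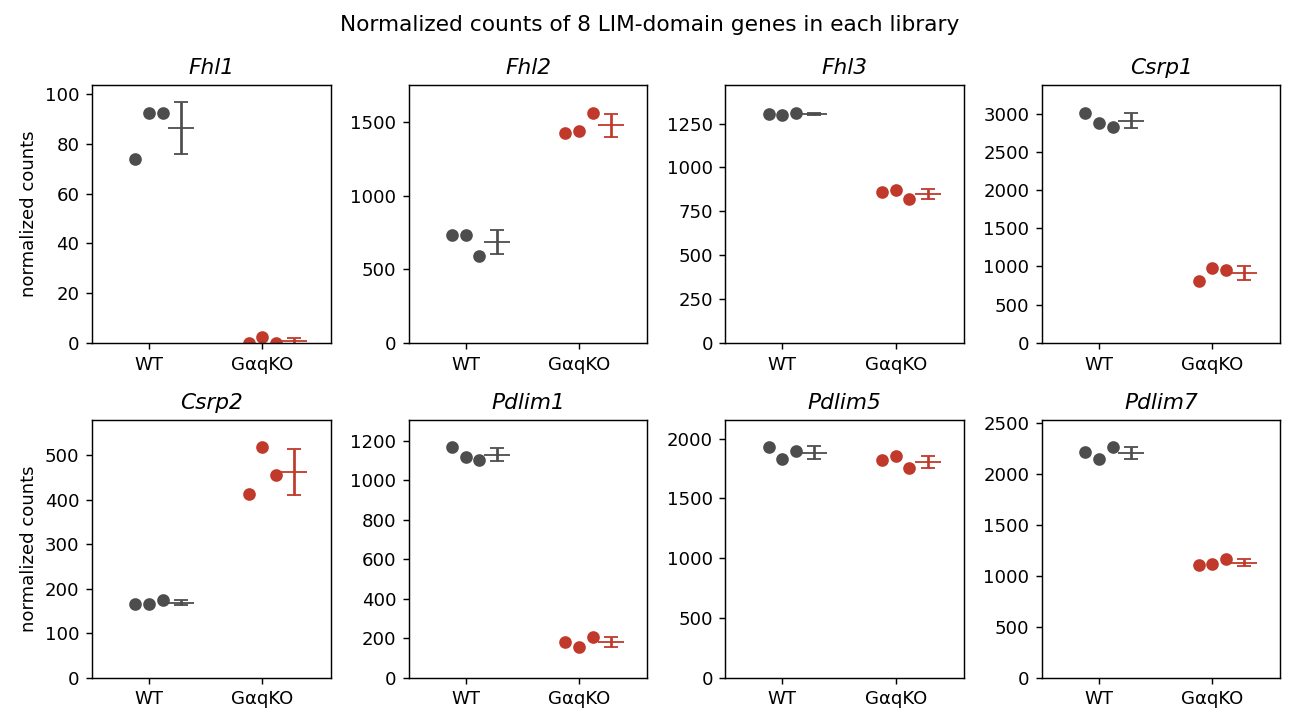
Normalized counts (vertical axes, each from 0) of the 8 genes in the 3 WT and the 3 GαqKO libraries, 1 panel per gene. Points are single libraries and bars are the mean ± SD. The groups are apart in 7 panels, with Fhl2 and Csrp2 higher in GαqKO, and only Pdlim5 overlaps.

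Fhl1 (ENSMUSG00000023092.17; chromosome X, 55777147 to 55838706 in GRCm39, plus strand) encodes a muscle-rich LIM-only protein that is mutated in inherited human myopathies. It had 74.1, 92.3 and 92.6 normalized counts in WT replicates 1, 2 and 3, and 0, 2.31 and 0 in the libraries labelled GαqKO. The transcript was therefore present at a low level in each WT library and all but missing from the other line. In reads, the WT libraries held 71, 95 and 91, and the first 2 libraries labelled GαqKO held 0 and 2, while the third was listed at 0. The ratio of WT to GαqKO over the 5 libraries with recovered reads was 83.5. It rests on 2 reads in the libraries labelled GαqKO, so its size is loosely fixed. Because the set was chosen for this loss, the ratio is description only. The fitted log2 fold change was -5.87 (standard error 0.47), and it depends on the pseudocount, with -6.60 at 0.5 and -4.00 at 5. Of all genes tested, 0.936% had a lower log2 fold change.

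Neither FHL paralogue was lost with Fhl1. Fhl2 (ENSMUSG00000008136.15; chromosome 1, 43162199 to 43236290, minus strand), a cofactor of β-catenin that also sits at focal adhesions, had 733.0, 734.4 and 592.4 normalized counts in WT. In the libraries labelled GαqKO it had 1427, 1441 and 1565. Fhl2 was thus 2.15-fold higher, a log2 fold change of 1.11 (standard error 0.078), with every library above every WT library. The gene shares its locus with other genes of the table: 81.1% of the bases of its canonical transcript lie inside their spans, chiefly that of AI597479 on the opposite strand. AI597479 itself was at 514.9 ± 44.7 and 573.8 ± 37.3 normalized counts (SD, n = 3 each; log2 fold change 0.16, adjusted p = 0.0893 from limma). Of all annotated exon bases of Fhl2, 5.64% lie inside exons of genes on the opposite strand. The strand setting of the counting is not given in the sources used here. Reads of the 2 genes in the shared stretch therefore cannot be told apart, and the level of Fhl2 is uncertain.

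Fhl3 (ENSMUSG00000032643.13; chromosome 4, 124594172 to 124602419, plus strand), a LIM-only protein that binds actin and is best known from muscle cells, had 1305, 1299 and 1313 normalized counts in WT. The libraries labelled GαqKO had 861.1, 870.6 and 818.7. The difference was small but far outside the WT spread, at 1.54-fold lower and a log2 fold change of -0.62 (standard error 0.050). Chromosome 4 as a whole was shifted in the same direction, with a median log2 fold change of -0.35 over its 860 genes tested, and with that median removed Fhl3 was at -0.26.

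The CSRP pair differed in opposite directions as well. Csrp1 (ENSMUSG00000026421.15; chromosome 1, 135647492 to 135679976, plus strand), which binds α-actinin and zyxin along stress fibers, had 3012, 2874 and 2827 normalized counts in WT. It was at 816.0, 981.6 and 957.7 in the libraries labelled GαqKO. Each of these was less than the lowest WT value by a wide margin, with Csrp1 3.16-fold lower on average and a log2 fold change of -1.66 (standard error 0.065).

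Csrp2 (ENSMUSG00000020186.8; chromosome 10, 110755650 to 110776096, plus strand), the paralogue known from smooth muscle of vessels, had 165.0, 166.1 and 175.1 normalized counts in WT. In the other line it had 414.1, 518.0 and 456.2, a 2.74-fold higher mean and a log2 fold change of 1.44 (standard error 0.096). The spread was wider in that group, with an SD of 52.3 against 5.53 in WT, yet the groups did not overlap. On chromosome 10 the median log2 fold change was -0.28 over 667 genes, opposite in sign to that of Csrp2, which was 1.73 with the median removed.

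Among the PDZ-LIM genes, Pdlim1 (ENSMUSG00000055044.13; chromosome 19, 40209617 to 40260533, minus strand), also called CLP36 or Elfin and a partner of α-actinin on stress fibers, had 1166, 1119 and 1104 normalized counts in WT. It had 182.2, 154.9 and 205.4 in the libraries labelled GαqKO. Pdlim1 was 6.25-fold lower, with a log2 fold change of -2.65 (standard error 0.092), and unlike Fhl1 it remained well measured in both lines.

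Pdlim7 (ENSMUSG00000021493.16; chromosome 13, 55643608 to 55662151, minus strand), known as Enigma or LIM mineralization protein for its role in bone formation, had 2212, 2149 and 2261 normalized counts in WT. In the libraries labelled GαqKO it had 1105, 1111 and 1167. These values lie close together and well under the WT level, at 1.96-fold lower, and the log2 fold change of -0.97 (standard error 0.047) stopped just short of -1.

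Pdlim5 (ENSMUSG00000028273.16; chromosome 3, 141945345 to 142101830, minus strand), the Enigma homologue that binds protein kinase C isoforms and the inhibitor Id2, was the only one of the 8 genes whose groups overlapped. It had 1927, 1826 and 1895 normalized counts in WT and 1818, 1851 and 1750.2 in the other line. Its log2 fold change was -0.06 (standard error 0.046). Chromosome 3 had a median of 0.32 over 734 genes tested, and relative to it Pdlim5 was at -0.38.

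On the chromosomes of the other genes the medians were -0.27 on X (484 genes), -0.15 on 19 (488), -0.02 on 1 (821) and -0.01 on 13 (537). With the chromosome median removed, Fhl1 was at -5.60, Pdlim1 at -2.50, Csrp1 at -1.64, Fhl2 at 1.14 and Pdlim7 at -0.96. No gene changed sign, while the size of the log2 fold change of Fhl3 fell and that of Pdlim5 rose by more than 1.5 times. The part of such chromosome shifts in these values was not tested.

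To compare levels between genes, normalized counts were divided by the length of the canonical transcript, which runs from 1712 bases for Fhl3 to 5383 bases for Pdlim5. The place of Fhl2 depends on this choice, since its canonical transcript has 1818 bases and all its annotated exons together have 16396. In WT, Csrp1 led with 1572 ± 52.2 normalized counts per kb (SD, n = 3), followed by Pdlim7 with 778.8 ± 19.8 and Fhl3 with 762.7 ± 4.16, whose ranges overlapped each other. Pdlim1 came next with 439.5 ± 12.6, and then Fhl2 with 377.7 ± 44.9 and Pdlim5 with 349.7 ± 9.53, another pair that overlapped. Csrp2 at 84.5 ± 2.77 and Fhl1 at 37.7 ± 4.62 were lowest, and both stood apart from their neighbours.

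In the libraries labelled GαqKO the order per kb was different. Fhl2 led with 812.8 ± 41.7 normalized counts per kb (SD, n = 3), and Csrp1 with 497.0 ± 48.4 and Fhl3 with 496.6 ± 16.1 could not be ordered. Below them stood Pdlim7 with 398.0 ± 12.1, Pdlim5 with 335.6 ± 9.56, Csrp2 with 231.7 ± 26.2 and Pdlim1 with 70.3 ± 9.83, with no overlap between neighbours. Fhl1 was last, at 0.337 ± 0.583. Divided by all exon bases instead, an alternative chosen after seeing the data, Fhl2 was sixth of the 8 in these libraries with 90.1 ± 4.63 normalized counts per kb and Fhl3 came first with 355.7 ± 11.6 (SD, n = 3 each). Summed over the 8 genes, the level per kb was 4402 ± 89.8 in WT and 2842 ± 92.7 in the libraries labelled GαqKO.

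The make-up of each family differed between the lines. Per kb of canonical transcript, the FHL sum was 1178 ± 38.9 in WT and 1309.7 ± 26.3 in the libraries labelled GαqKO (SD, n = 3 each). Fhl3 made up 63.6%, 63.1% and 67.7% of the FHL sum in the WT libraries, whereas Fhl2 made up 61.0%, 60.9% and 64.3% in those labelled GαqKO. With all exon bases as the length, Fhl3 was the largest FHL gene in both lines, at 89.7% ± 0.682 and 79.7% ± 1.33 of the sum, and the sum was lower in the libraries labelled GαqKO, at 609.2 ± 1.34 and 446.0 ± 7.44 (SD, n = 3 each). Under both lengths the share of Fhl2 was larger in every library labelled GαqKO than in every WT library, with 6.87% ± 0.806 and 20.2% ± 1.36 by all exon bases. The share of Fhl1 was 3.21% ± 0.451 in WT and 0.0259% ± 0.0448 in the other line (SD, n = 3 each).

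In the CSRP pair the sum per kb was 1656 ± 50.1 in WT and 728.7 ± 72.5 in the libraries labelled GαqKO (SD, n = 3 each). Csrp1 made up 95.2%, 94.9% and 94.6% of it in WT against 68.0%, 67.2% and 69.4% in the other line, so it was the larger of the pair in each library. The sum of the PDLIM genes per kb was 1568 ± 31.2 in WT and 803.9 ± 11.3 in GαqKO (SD, n = 3 each). Pdlim7 held 49.7% ± 0.763 and 49.5% ± 0.820 of it, while Pdlim1 held 28.0% ± 0.723 and 8.74% ± 1.11, and Pdlim5 22.3% ± 0.174 and 41.8% ± 1.75. The FHL shares rest on the uncertain level of Fhl2 and on the length used for it.

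**Figure D2:**
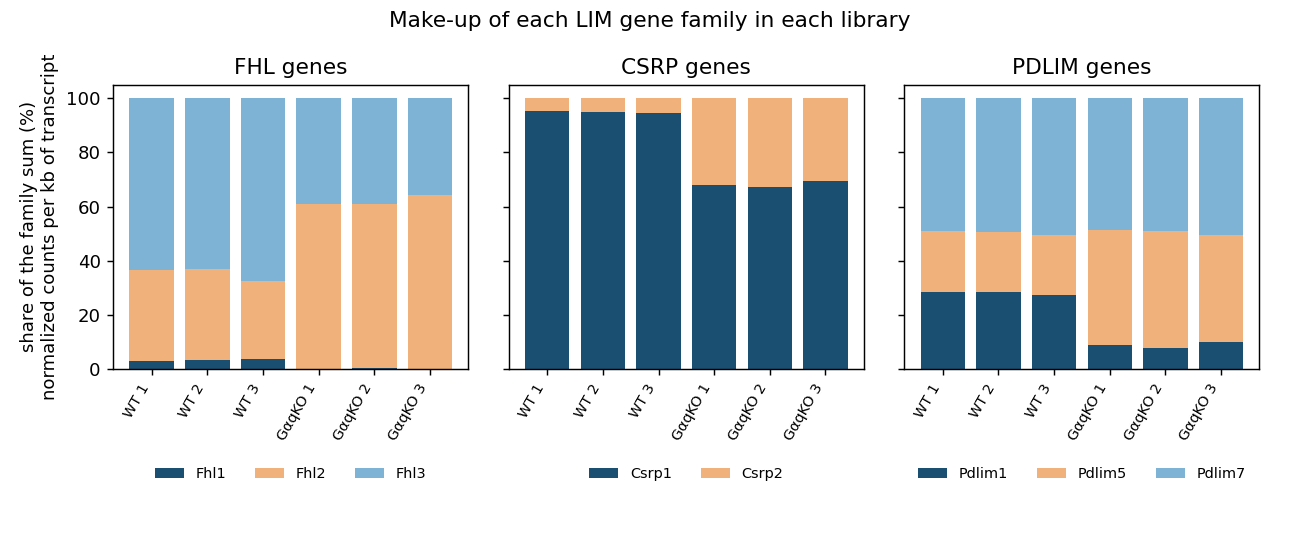
Share (%, vertical axis from 0) of each gene in the sum of its family, on normalized counts per kb of canonical transcript, in each of the 6 libraries. Colors are genes. By this length Fhl2 has the largest FHL share in GαqKO, whereas by all exon bases Fhl3 has it in both lines. Csrp2 goes from 5.42% or less to 30.6% or more of the CSRP pair, and the share of Pdlim5 is larger where that of Pdlim1 is smaller.

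Because Fhl1 was almost missing from the libraries labelled GαqKO, its surroundings on the X chromosome were read. Of the 22 other genes of the table within 500 kb, 5 passed the filter, and the rest were too low to be tested. Among those that passed, 4 are described, Zfp449, Ints6l, Mmgt1 and Htatsf1. Their log2 fold changes ran from -0.08 for Ints6l to 0.27 for Htatsf1. Htatsf1, which starts 321.5 kb from Fhl1, rose slightly (standard error 0.058, adjusted p = 0.00105 from limma), and the other 3 genes had adjusted p from 0.115 to 0.583. Mmgt1, which encodes a membrane magnesium transporter, had 1121 ± 26.7 and 1205 ± 71.6 normalized counts (SD, n = 3 each). On the X chromosome as a whole, 79 of 484 genes tested (16.3%) fell and 27 (5.58%) rose past both thresholds, beside 10.5% and 10.2% of all genes tested. The table gives whole-gene counts and does not show whether the Fhl1 locus is intact.

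**Figure D3:**
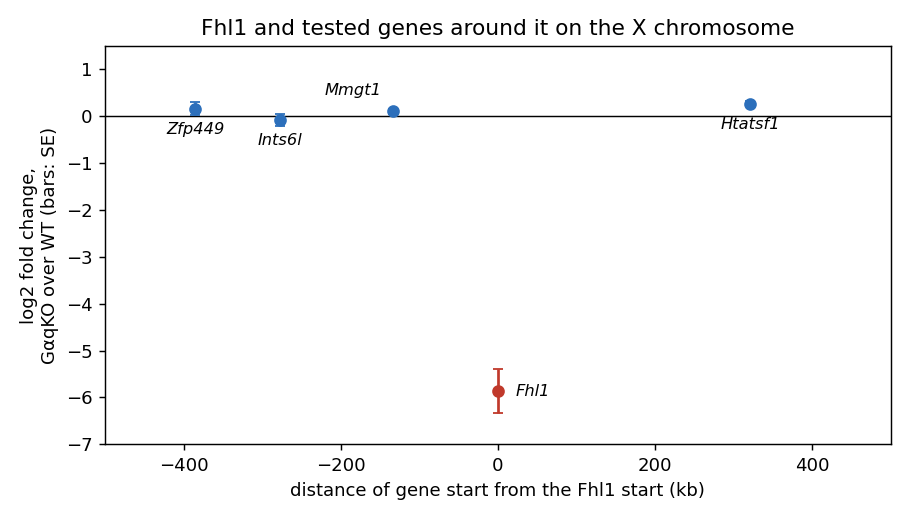
Log2 fold change of GαqKO over WT (vertical axis) against the distance of each gene start from the Fhl1 start in kb (horizontal axis), for Fhl1 and 4 tested genes within 500 kb. Bars are standard errors. Fhl1 is at -5.87 and the 4 neighbours lie between -0.08 and 0.27.

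The genes whose log2 values over the 6 libraries were closest to those of Fhl1, by Euclidean distance among 11601 named protein-coding genes, were Dmbx1 (distance 0.573), Smim1 (0.632) and Ap1s3 (0.715). All 3 had the same profile as Fhl1, with Dmbx1 at 95.8 ± 9.75, Smim1 at 89.4 ± 14.5 and Ap1s3 at 75.0 ± 5.45 normalized counts in WT (SD, n = 3 each). In the libraries labelled GαqKO they had at most 3.47, 1.16 and 1.16. With 2 groups of 3 libraries, any gene that is near 90 in one line and near 0 in the other comes out close.

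The wider LIM family was read from a list of 47 other genes that encode LIM domains. Of the 34 that were tested, 21 fell and 7 rose at an adjusted p under 0.05 (limma), which is 61.8% and 20.6%, beside 34.1% and 31.8% of all genes tested. Past the fold threshold as well, 9 fell (26.5%, beside 10.5%) and 3 rose (8.82%, beside 10.2%). The median log2 fold change of the list was -0.32, against -0.01 over all genes tested. Zfp185 and Mical1 passed the filter through WT alone, and 4 genes, Fhl5, Lmo1, Lmo2 and Tes, were listed at 0 in every library. Tes and Fhl5 are fully covered by spans of other genes in the table, a class of protein-coding gene of which 71.5% were listed at 0, against 25.2% of those outside such spans.

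Among the closest relatives of the 8 genes, both directions were found again. Pdlim2, a PDZ-LIM protein that limits NF-κB, had 277.8, 282.7 and 273.8 normalized counts in WT and 1071, 1097 and 1152 in the other line, and its log2 fold change was 1.99 (adjusted p = 5.85e-12 from limma). Pdlim4 rose less, from 62.1 ± 12.5 to 134.4 ± 9.21 normalized counts (SD, n = 3 each). Ldb3, the PDZ-LIM protein of the muscle Z-disc, fell from 59.9 ± 2.90 to 8.51 ± 2.24. Of the remaining FHL and CSRP paralogues, Fhl4 had 26.4 ± 4.98 and 35.0 ± 9.23 normalized counts (SD, n = 3 each; adjusted p = 0.247 from limma), and Csrp3, the muscle LIM protein, had at most 1.04 in any library.

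The other genes of the list past both thresholds were 8 that fell and 1 that rose. Mical1 and Mical2, monooxygenases that oxidize actin, fell with log2 fold changes of -5.53 and -2.08. For Mical2 the adjusted p was 7.73e-13 from limma. Mical1 entered the fit through its WT libraries alone, so no p-value is given for it. It had at most 7.05 normalized counts in any library of the other line. Fblim1, which encodes migfilin, fell from 1181 ± 80.7 to 190.4 ± 12.4 normalized counts, and Lasp1, an actin-binding LIM and SH3 protein, from 5224 ± 146.9 to 2372 ± 42.7 (SD, n = 3 each). Crip2, a relative of the CSRP proteins, was 6.92-fold lower, and the planar polarity genes Prickle1 and Prickle3 had log2 fold changes of -2.13 and -4.30. Their relative Prickle2, with far more counts, was at 2696 ± 154 and 2587 ± 31.1 (SD, n = 3 each), with an adjusted p of 0.302 from limma. Zfp185, an actin-associated LIM protein, is encoded on the X chromosome like Fhl1 and Prickle3. Zfp185 had 66.8, 66.1 and 57.0 normalized counts in WT and 0 in every library of the other line. This is at least 21.1-fold lower against a floor of 3 counts per library. The largest rise in the list was that of Lmo7, which binds actin and emerin, from 223.3 ± 4.40 to 1180.2 ± 17.8 (log2 fold change 2.40, adjusted p = 1.04e-12 from limma).

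**Figure D4:**
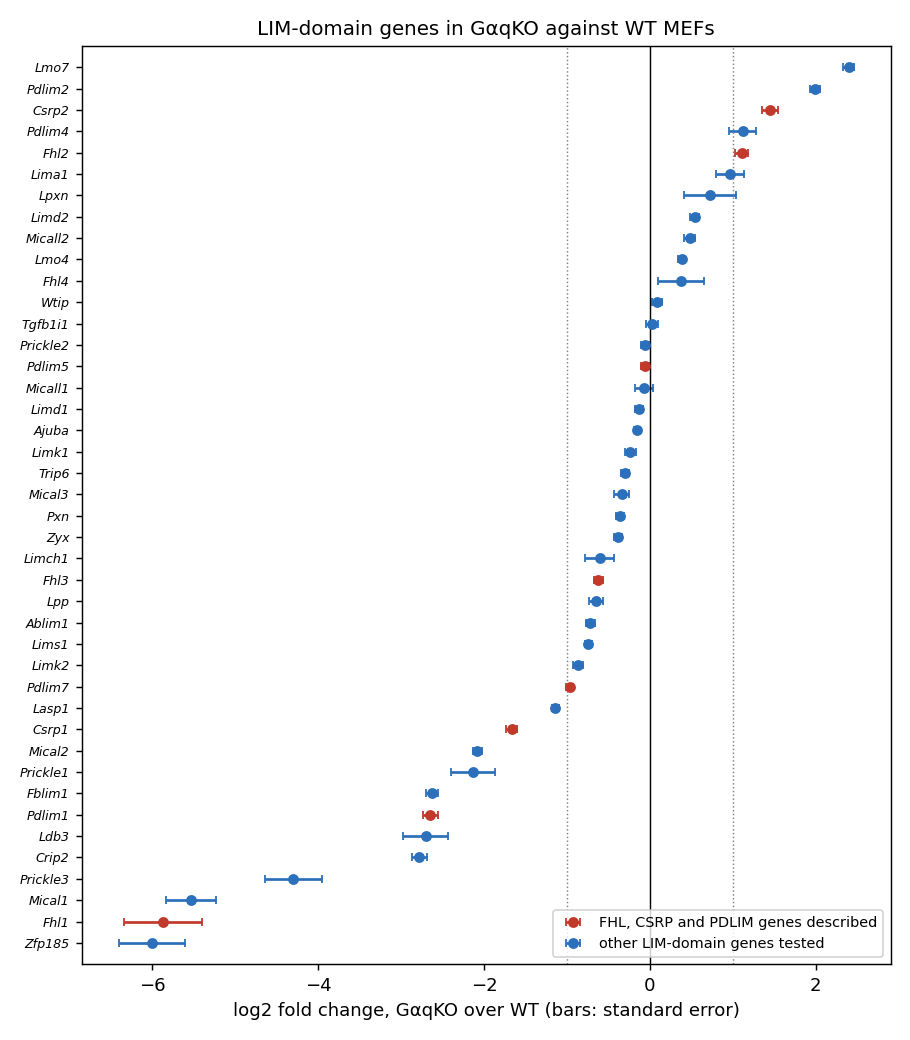
Log2 fold change of GαqKO over WT (horizontal axis) of the 8 genes described (red) and the 34 other LIM-domain genes tested (blue), in order of size. Bars are standard errors and dotted lines mark 1 and -1. Fhl1 lies between Mical1 and Zfp185 at the lower end, and Csrp2 and Fhl2 lie near Pdlim4 and Pdlim2 at the upper end.

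Binding partners of the FHL, CSRP and PDLIM proteins were read from a list of 18 genes, of which 15 were tested, with 7 lower and 5 higher at an adjusted p under 0.05 (limma), which is 46.7% and 33.3% beside 34.1% and 31.8% of all genes tested. Past both thresholds, 20% of the partners tested fell, beside 10.5% of all genes tested, and 13.3% rose, beside 10.2%. Those past both thresholds included Itga7, Id2 and Palld, which fell, and Foxo1, which rose. Id2, the partner of Pdlim5, fell from 1123 ± 121 to 215.7 ± 23.6 normalized counts (SD, n = 3 each), while Pdlim5 itself stayed within the WT range in 1 library and just under it in the others. Foxo1, a transcription factor that Fhl2 binds, rose 3.07-fold, and Itga7, an integrin chain that binds FHL proteins in muscle, fell 39.7-fold. Palld, an actin cross-linker found with Pdlim1, fell from 6476 ± 75.0 to 2711 ± 77.0. Of the α-actinins, to which CSRP and PDLIM proteins bind, Actn1 fell with a log2 fold change of -0.57 (adjusted p = 2.44e-07 from limma), and Actn4 had 3772 ± 30.4 and 3697 ± 53.0 normalized counts (SD, n = 3 each; adjusted p = 0.529 from limma). Itgb1, Jun and Prkce rose with log2 fold changes of 0.60, 0.78 and 0.30, each past an adjusted p of 0.05 in limma. All exon bases of Jun lie inside the span of another gene.

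SRF cofactors and contractile genes were read because FHL and CSRP proteins act with SRF and several are its targets. Of 22 genes, 18 were tested, and 12 fell and 1, Mrtfa, rose at an adjusted p under 0.05 (limma), which is 66.7% and 5.56% beside 34.1% and 31.8% of all genes. Past both thresholds, 6 fell (33.3%, beside 10.5% of all genes tested) and 0 rose (beside 10.2%). The 6 were Ccn2, Tagln, Ccn1, Acta2, Tpm1 and Cald1, with log2 fold changes from -2.86 to -1.02. Tagln passed the filter through WT alone. Srf itself had 1895 ± 25.7 and 1932 ± 5.01 normalized counts (SD, n = 3 each; log2 fold change 0.03, adjusted p = 0.575 from limma). Like Srf, the list genes Smtn, Tpm4, Mrtfb and Myl9 did not reach an adjusted p under 0.05 (limma). Of the 8 genes described above, Fhl1, Fhl3, Csrp1, Pdlim1 and Pdlim7 were lower, Fhl2 and Csrp2 were higher, and Pdlim5 overlapped. A link between the 8 genes and the SRF and contractile genes was not tested. Tagln has 81.5% of its exon bases and Ccn2 40.8% inside the spans of other genes.

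**Figure D5:**
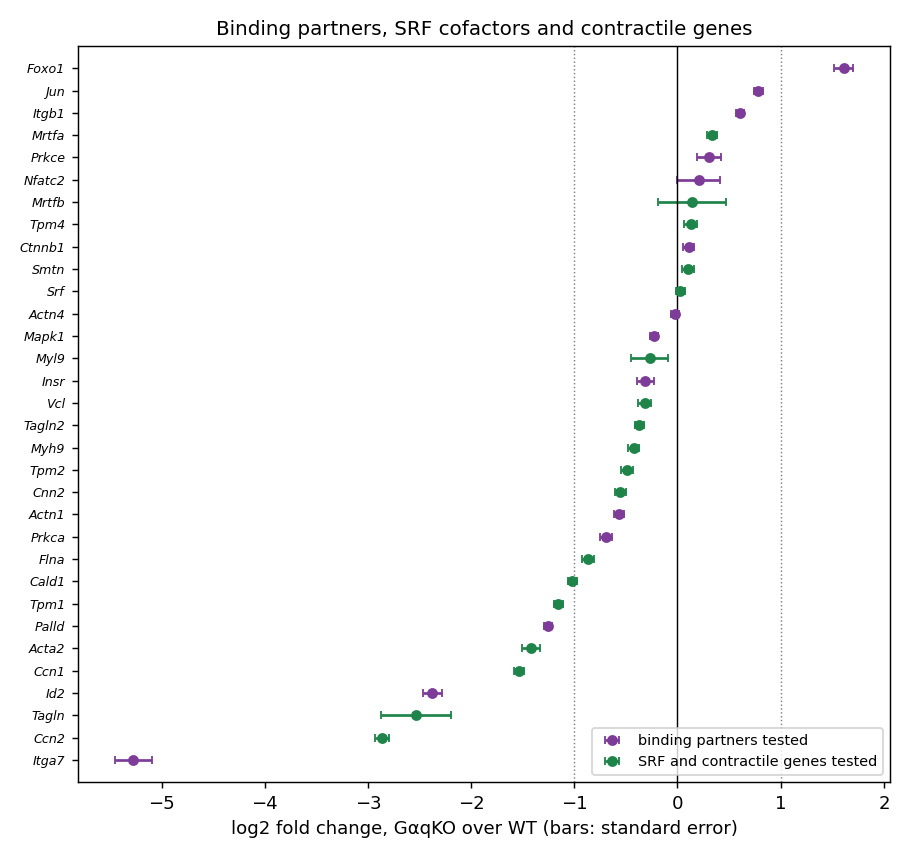
Log2 fold change of GαqKO over WT (horizontal axis) of tested binding partners (purple) and SRF and contractile genes (green), in order of size. Bars are standard errors and dotted lines mark 1 and -1. Foxo1 is the highest of the genes drawn at 1.61 and Itga7 the lowest at -5.27, and most green points lie below 0.

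Muscle markers were read because Fhl1, Csrp2 and Ldb3 are best known from muscle. Over 10 skeletal muscle markers the summed level was 26.5 to 41.8 normalized counts in the WT libraries and 25.4 to 35.2 in those labelled GαqKO, with Myog and Myf5 at 0 throughout. Smooth muscle markers, 8 genes, summed to 1607 to 1775 and 1225 to 1294, carried by Smtn and Acta2, with Myh11 at 8.09 or less. Among 6 cardiac markers only Tnnt2 was measured above 4 normalized counts, at 752.95 ± 38.6 in WT and 6.49 ± 1.36 in the other line (SD, n = 3 each). The MEF label was checked against 10 fibroblast markers, which summed to 84228 to 89978 in WT and 62442 to 65644 in the libraries labelled GαqKO. Of the 9 fibroblast markers tested, 5 fell and 4 rose at an adjusted p under 0.05 (limma). These are 55.6% and 44.4%, beside 34.1% and 31.8% of all genes tested. Those that fell were Col1a1 with a log2 fold change of -1.53, Fn1 with -0.73, Col1a2 with -0.36, Vim with -0.32 and Col3a1 with -0.18. Among those that rose, Pdgfra and Dcn were low in WT, at 19.6 ± 2.23 and 32.1 ± 3.00, and at 2320 and 1663 in the other line. Thy1 was at 0 in 2 WT libraries and passed the filter through the libraries labelled GαqKO alone. Over 7 epithelial markers the sums were 515.0 to 544.0 in WT and 10.1 to 23.1 in the libraries labelled GαqKO, and in WT nearly all of it came from Cdh1 and Krt14. The 6 endothelial markers summed to 12.6 to 23.4 and 18.8 to 26.6, and the 6 haematopoietic markers to 105.5 to 120.5 and 70.4 to 105.2. The part of these differences in the values of the LIM genes was not tested.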

How the data were processed

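Poly-A RNA was sequenced by the authors as paired-end reads, which were mapped to GRCm39 by Rbowtie2. Gene counts came from featureCounts (GENCODE release 32) and went into DESeq2. The deposited values are a signal, gene counts divided by 1 size factor per library. Tool versions and the strand setting are not given in the sources used here. Symbols and coordinates came from GENCODE release 39 (56310 of 56953 identifiers matched), and lengths from canonical transcripts.

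In all 6 libraries 100.0% of nonzero values were whole multiples of a step (tolerance 0.01). Count tests were run on the reads recovered from 5, since in GαqKO replicate 3 the step was too close to 1 to tell normalized values from reads. Limma 3.58.1 in R 4.3.3, using limma-trend and p-values adjusted by Benjamini-Hochberg, was fitted on log2(normalized count + 1) over all genes passing the filter. edgeR 4.0.16 and DESeq2 1.42.0 were alternatives. The scripts were tested on simulated data. The study states biological replicates. No labels give a batch. P-values measure the spread between the 3 libraries of each line.

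The 8 members and all lists were chosen with earlier results of these data known. Named genes were the members, list genes past both thresholds whose mean reached 20 normalized counts (the 12 of greatest change at most), Gnaq, Gna11, Xist and Ddx3y, tested genes within 500 kb of Fhl1, its 3 closest profiles, and markers where a result touched them. Xist was listed at 0 throughout and lies wholly inside other spans. Genes outside this rule, among them Srf, Mrtfa, the α-actinins, AI597479 and the Fhl and Csrp paralogues, were named after their values were seen. Promoter motifs were also chosen then. Protein sequences were not used here. A binding partner and a neighbour of Fhl1 are not reported here, though they stay in the counts.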

Additional observations from a re-analysis of the deposited data

How the results depend on the processing

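A minimum of 10 normalized counts in all 6 libraries removes genes absent from a line and also genes that are present but low in any library. It left 831 genes higher and 765 lower past both thresholds, against 1432 and 1486, 5 lower among the other LIM genes against 9, and 1 higher among the partners against 2, with Fhl1 not fitted. Each library left out in turn gave 1426 to 1545 genes higher and 1492 to 1603 lower, 3 to 4 and 9 to 10 for the other LIM genes, 2 and 3 for the partners, 6 lower for the SRF and contractile list, and 2 and 3 for the 8 members. With TMM scaling there were 1443 and 1473, with edgeR on 5 libraries 1460 and 1554, and with DESeq2 1333 and 1502. The replicate numbers did not pair the libraries (correlations of same-number deviations -0.15 to -0.05), and the replicate block gave 1421 and 1478. The members kept their sign in every alternative, and the 4 of their fold changes that moved by more than the spread were Fhl1 at a pseudocount of 5 (-4.00) and Fhl3 (-0.26), Csrp2 (1.73) and Pdlim5 (-0.38) with the chromosome median removed. The log2 ratio of the FHL sum per kb, 0.15 with the canonical transcript, was -0.45 with all exon bases as the length, an alternative chosen after seeing the data. With libraries left out, Fhl1 ran from -6.44 to -5.58, Fhl2 from 1.01 to 1.16 and Pdlim7 from -0.99 to -0.95. At this depth, Fhl1 in the libraries labelled GαqKO is at the limit of counting, so its fold change has no firm upper end.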

Other observations

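The zyxin and Ajuba relatives are LIM proteins that shuttle between adhesions and the nucleus. Zyx went from 2980 ± 144 to 2274 ± 75.9 normalized counts, Lpp from 2560 ± 357 to 1623 ± 100.3 and Trip6 from 1520 ± 51.8 to 1236 ± 6.99 (SD, n = 3 each). Their log2 fold changes were -0.39, -0.65 and -0.30, each past an adjusted p of 0.05 in limma. In the Ajuba group, Ajuba and Limd1 were slightly lower, with log2 fold changes of -0.15 and -0.13 (adjusted p = 0.00394 and 0.0261 from limma). Wtip, of the same group, had means of 675.9 and 716.7 (n = 3 each; adjusted p = 0.216 from limma). Zyx has 61.1% of its exon bases inside the spans of other genes.

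Among LIM proteins of integrin adhesions, Lims1, which encodes PINCH1, fell from 2333 ± 29.3 to 1394 ± 22.6 normalized counts and Pxn, which encodes paxillin, from 1779 ± 59.1 to 1386 ± 39.8 (SD, n = 3 each), with log2 fold changes of -0.74 and -0.36 (adjusted p = 3.25e-09 and 1.47e-05 from limma). Tgfb1i1, the paxillin relative Hic-5, had 382.5 ± 16.4 and 390.4 ± 5.66 (adjusted p = 0.729 from limma). Lpxn, another paxillin relative, had 17.9 ± 3.85 and 31.1 ± 11.5 (adjusted p = 0.0539 from limma), with every library labelled GαqKO above every WT library. The LIM kinases Limk1 and Limk2, which act on cofilin, fell with log2 fold changes of -0.23 and -0.87. In the whole list of other LIM genes, 20.6% of those tested rose and 61.8% fell at an adjusted p under 0.05 (limma). The shares over all genes tested were 31.8% and 34.1%. Those that rose short of a log2 fold change of 1 were Lima1 (0.97), Limd2 (0.54), Micall2 (0.48) and Lmo4 (0.39). All genes of this section were chosen for description after their values were seen.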
